A study of Mus musculus with 6 samples.

Results

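Basal interferon-stimulated genes are genes that cells switch on when interferon binds its receptor and that are also transcribed at a low level without infection. Their levels were compared in fibroblasts of the mammary fat pad from 2 inbred mouse strains. The set was chosen by gene symbol from a list of 34 genes, of which 33 were among the 12023 genes of the deposited count table and Xaf1 was not. Of these, 30 had enough counts to be tested, among 8752 tested genes in all, while Rsad2, Ifih1 and Cmpk2 were below the count filter.

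The cells were normal mammary fibroblasts from healthy females of 8 to 12 weeks, 3 biological replicates of BALB/c and 3 of C57BL/6, cultured for 4 days. The design text says that they were isolated by magnetic separation, without naming the target, and the labels describe enzymatic digestion and growth on collagen. No gene was altered and no agent such as interferon is named in the labels for either strain, so the levels are those of untreated cultures. The sources used here do not say whether a replicate was 1 mouse or a pool. Reads from the 3′ ends of polyadenylated RNA were counted per gene.

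Type I interferons bind a receptor whose kinases phosphorylate STAT factors. STAT2 and IRF9 are parts of the complex that results, ISGF3, which binds the interferon-stimulated response element of the promoters of its target genes. Interferon gamma acts through a different element, the gamma-activated site, and the gene of the factor IRF1 is among its targets. Unstimulated fibroblasts are known to keep a low, tonic level of this programme. The products of the genes bind viral RNA, block viral entry or release, modify proteins with ISG15, or add to the signalling itself.

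The 2 elements are short sequences that can be read directly in the promoters of those genes of the set that hold them. The promoters of the set shown here are those of genes on which the results below turn and that hold a match. They come from RefSeq's table for GRCm38.p6, which has no entry for Zbp1. Capitals mark the match, which for the response element is GAAA, any 2 bases and GAAA on either strand and for the gamma-activated site of Irf1 is TTCNNNGAA, whose pattern is the same on both strands. Overlapping matches run together. Each stretch lies before the annotated start and stops before the first annotated exon. Isg15 is from chr4:156200819-156200938 on the minus strand, Bst2 from chr8:71537503-71537622 on the minus strand and Ifit1 from chr19:34640769-34640870 on the plus strand. Ifit3 is from chr19:34583353-34583472 on the plus strand, Ifitm2 from chr7:140955988-140956081 on the minus strand and Irf1 from chr11:53769894-53770013 on the plus strand.
Isg15: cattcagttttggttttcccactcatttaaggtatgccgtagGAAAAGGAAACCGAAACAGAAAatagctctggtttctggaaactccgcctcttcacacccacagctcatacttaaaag
Bst2: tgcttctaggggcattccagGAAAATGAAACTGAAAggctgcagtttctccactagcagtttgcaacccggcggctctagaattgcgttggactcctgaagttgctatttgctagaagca
Ifit1: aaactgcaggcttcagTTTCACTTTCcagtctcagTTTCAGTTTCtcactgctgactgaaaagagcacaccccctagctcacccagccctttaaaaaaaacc
Ifit3: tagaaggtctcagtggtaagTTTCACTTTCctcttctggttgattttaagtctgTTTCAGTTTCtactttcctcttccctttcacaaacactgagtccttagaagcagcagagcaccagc
Ifitm2: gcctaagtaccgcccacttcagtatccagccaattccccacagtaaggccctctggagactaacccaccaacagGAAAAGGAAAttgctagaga
Irf1: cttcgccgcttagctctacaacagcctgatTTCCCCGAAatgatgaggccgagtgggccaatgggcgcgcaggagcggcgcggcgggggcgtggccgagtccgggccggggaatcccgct

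Isg15 held 3 overlapping matches within a single run, Bst2 held 2 overlapping ones, and Ifit1 and Ifit3 each held 2 that lay apart. The table of promoters held 27 of the 34 genes. Ifi27, Rtp4, Usp18, Parp9, Parp14, Dhx58 and Zbp1 were not in it and could not be searched. The response element was found in the 250 bases before a start of 8 of the 27 genes, or 29.6%, and in 3.19% of the 9536 genes of the count table with a promoter. The 8 were Isg15, Bst2, Ifit1, Ifit3, Ifitm2, Stat2, Rsad2 and Apobec3. The gamma-activated site was found in 4 of 27, which were Bst2, Ifit2, Irf1 and Eif2ak2, or 14.8% against 6.85% of the genes of the count table. A match describes these letters only, and no binding was measured.

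The 6 libraries held 1035485 to 4665896 counts. Levels are in CPM, the usual per-library unit of counts scaled to the same total in each library, and 3 counts correspond to 0.612 CPM in the deepest library and 2.9 CPM in the shallowest. C57BL/6 replicate 1 stood apart from the other 5 libraries, so the results below are given with and without it. Of the tested genes, 12.9% lay at least 4-fold lower in it than in both other C57BL/6 libraries. The 33 genes held 0.469% to 0.642% of all counts of a library, the lowest share being that of BALB/c replicate 2. The label of the cells was checked with 12 fibroblast markers, of which 11 were in the table, Lum being the one that was not. Of the 11, Fap was at 0 in C57BL/6 replicate 1, where Col3a1 was at 20.6 CPM, and the other 10 were detected in every library. The fibroblast markers made up 0.216% to 1.16% of counts and the mammary epithelial markers 0.21% to 1.68%. The epithelial share was above the fibroblast share in 4 of the 6 libraries, the exceptions being BALB/c replicate 1 and C57BL/6 replicate 2. In C57BL/6 replicate 1 the shares were 1.68% and 0.216%. Such shares depend on the markers listed and are not shares of cells. None of 12 lymphocyte markers was in the table.

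The genes of the set were detected in every library, except for Ifit1, Ifit2, Rsad2, Ifih1 and Cmpk2 in C57BL/6 replicate 1 and for Rsad2 and Cmpk2 in BALB/c replicate 3. No gene of the set passed the test between the strains. Of the 30 tested genes, 0 differed between BALB/c and C57BL/6 at an adjusted p under 0.05 in edgeR's quasi-likelihood test, where 0.206% of all tested genes did. DESeq2, limma-voom and limma-voom with library quality weights also called 0 of the 30. In edgeR 3 genes had an unadjusted p under 0.05, which were Zbp1, Bst2 and Ifit3, all lower in BALB/c. That is 10% of the 30, where 3.86% of all tested genes had such a p in either direction and 2.54% in that direction. The lowest adjusted p of the set was 0.93, for Zbp1. The median log2 difference, BALB/c minus C57BL/6, was -0.22 for the 30 genes and 0.01 for all tested genes. Of the 30 genes 22 had a difference below 0, or 73.3%, against 48.9% of all tested genes.

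**Figure D1:**
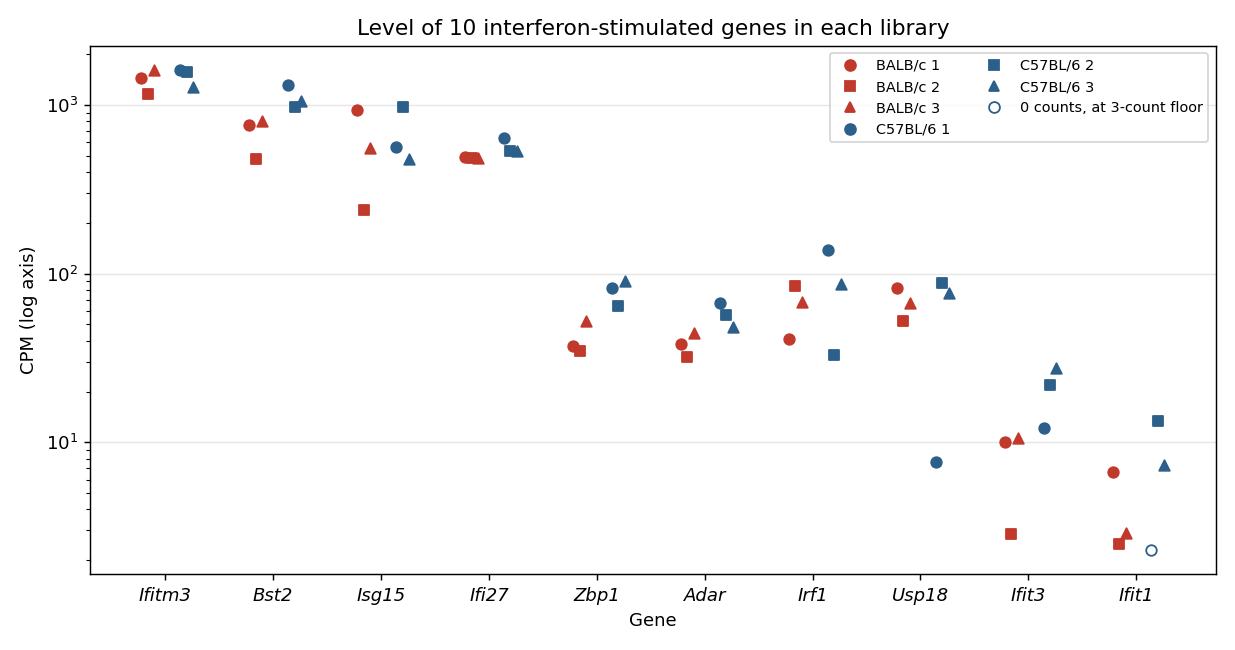
CPM (log axis) of 10 of the genes in each of the 6 libraries, BALB/c in red and C57BL/6 in blue, with the replicate given by the marker shape and an open marker for 0 counts placed at the 3-count floor. Zbp1, Bst2, Adar and Ifit3 are higher in each C57BL/6 library than in each BALB/c library, while Isg15 spans 238 to 939 CPM within BALB/c alone and Usp18 is at 7.64 CPM in C57BL/6 replicate 1.

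ISG15 is a ubiquitin-like protein that is joined to other proteins after interferon, TRIM25 is a ligase that also activates the RNA sensor RIG-I, and USP18 removes ISG15 and dampens signalling at the receptor. Isg15, at chromosome 4, 156199424 to 156200818 on GRCm38, was at 939, 238 and 558 CPM in BALB/c replicates 1, 2 and 3 and at 565, 969 and 479 CPM in C57BL/6 replicates 1, 2 and 3. The strains overlapped, with the highest values in BALB/c replicate 1 and C57BL/6 replicate 2, and the range within BALB/c was 3.94-fold. The log2 difference was -0.21 ± 0.51 (± standard error here and below). Usp18 was at 82.7, 52.6 and 66.8 CPM in BALB/c and at 7.64, 88.3 and 77.1 CPM in C57BL/6. It was low in C57BL/6 replicate 1 alone, which had 10 counts. Its log2 difference was 0.21 ± 0.72 with all libraries and -0.31 ± 0.24 without that one. Trim25 was at 104, 101 and 120 CPM in BALB/c and at 115, 86.0 and 74.1 CPM in C57BL/6, a log2 difference of 0.25 ± 0.26. Without C57BL/6 replicate 1 each BALB/c library lay above the C57BL/6 libraries and the difference was 0.43 ± 0.19.

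The IFIT proteins bind viral RNA and block its translation. On chromosome 19 the gaps are 7111 bp between Ifit2 and Ifit3 and 52139 bp between Ifit3 and Ifit1. Genes outside the set were not looked for in these gaps. Ifit1, Ifit2 and Ifit3 were all low in these cultures. Ifit3, at chromosome 19, 34583531 to 34588731, was at 10.005, 2.86 and 10.6 CPM in BALB/c and at 12.2, 21.9 and 27.5 CPM in C57BL/6. Every C57BL/6 library lay above every BALB/c library. The log2 difference was -1.47 ± 0.60, and -1.78 ± 0.54 without C57BL/6 replicate 1, with unadjusted p of 0.0425 and 0.0138 and adjusted p of 0.954 and 0.697 in edgeR. The counts behind it were 15, 8 and 11 in BALB/c and 16, 28 and 135 in C57BL/6. Ifit3b, a gene of the same family outside the set, did not share this order. It was at 8.00, 7.16 and 7.74 CPM in BALB/c and at 4.58, 3.13 and 7.96 CPM in C57BL/6. The log2 difference of Ifit3b was 0.461 ± 0.515, and the strains overlapped. Ifit1 had 10, 7 and 3 counts in BALB/c and 0, 17 and 36 in C57BL/6, which is 6.67, 2.51 and 2.90 CPM against 0, 13.3 and 7.35 CPM. Its log2 difference was -0.79 ± 1.04, and -1.33 ± 0.62 without C57BL/6 replicate 1. Ifit2 had 14, 15 and 8 counts in BALB/c and 0, 17 and 29 in C57BL/6. The 0 counts of Ifit1 and Ifit2 in C57BL/6 replicate 1 allow a level of up to 2.29 CPM, which covers counting error only.

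BST2, also called tetherin, holds budding virus at the cell surface, and IFITM2 and IFITM3 block the fusion of virus with cell membranes. Bst2, at chromosome 8, 71534255 to 71537456, was at 760, 481 and 802 CPM in BALB/c and at 1318, 969 and 1050.5 CPM in C57BL/6. The strains did not overlap. Its log2 difference was -0.71 ± 0.28 (edgeR adjusted p = 0.954, unadjusted 0.0359) and was -0.58 ± 0.25 without C57BL/6 replicate 1 (edgeR unadjusted p = 0.0518). Ifitm3, at chromosome 7, 141009586 to 141010770, was at 1439, 1169 and 1606 CPM in BALB/c and at 1614, 1569 and 1276 CPM in C57BL/6. It varied little, with a log2 difference of -0.08 ± 0.23. Ifitm2, which lies 53598 bp from Ifitm3, was at 504, 692 and 439 CPM in BALB/c and at 1021, 399 and 423 CPM in C57BL/6. Its sign turned on 1 library, from -0.17 ± 0.42 with all to 0.40 ± 0.23 without C57BL/6 replicate 1. The last 500 nt of Ifitm2 match 3 other annotated transcripts by at least 95%, the longest match covering 352 nt, so its count is uncertain.

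Several genes of the set act on nucleic acids or nucleotides. ZBP1 is a sensor of Z-form nucleic acid that can trigger cell death. Zbp1, at chromosome 2, 173206612 to 173218923, was at 37.4, 34.7 and 52.3 CPM in BALB/c and at 82.5, 64.1 and 91.0 CPM in C57BL/6. The strains did not overlap, and the mean ± SD was 41.4 ± 9.46 CPM in BALB/c, against 79.2 ± 13.8 CPM in C57BL/6 (n = 3 each). The log2 difference was -0.95 ± 0.29, and -0.94 ± 0.28 without C57BL/6 replicate 1 (edgeR unadjusted p of 0.0121 and 0.0119, adjusted p of 0.93 and 0.685). Adar, whose enzyme edits adenosine in double-stranded RNA, was at 38.02, 32.2 and 44.5 CPM in BALB/c and at 67.2, 57.1 and 48.2 CPM in C57BL/6. These did not overlap either, although the lowest C57BL/6 library and the highest BALB/c library were close, and the log2 difference was -0.59 ± 0.28. Its exons overlap those of Chrnb2 on the opposite strand.

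Eif2ak2, which encodes the RNA-activated kinase PKR, was at 35.4, 20.04 and 61.0 CPM in BALB/c and at 44.3, 40.6 and 49.8 CPM in C57BL/6, so that BALB/c spanned the whole C57BL/6 range. Apobec3, a cytidine deaminase that restricts retroviruses and for which strain alleles are known, was at 29.3, 47.2 and 49.4 CPM in BALB/c and at 110.0, 30.5 and 74.7 CPM in C57BL/6. Its log2 difference of -0.77 ± 0.48 was -0.37 ± 0.42 without C57BL/6 replicate 1, and its exons overlap those of Cbx7 on the opposite strand and D730005E14Rik. Oasl2, of the oligoadenylate synthetase family, was at 56.0, 21.5 and 41.6 CPM in BALB/c and at 6.11, 52.4 and 42.6 CPM in C57BL/6. Its log2 difference was 0.215 ± 0.706 with all libraries and -0.282 ± 0.397 without C57BL/6 replicate 1. Samd9l, an inhibitor of growth and of virus replication, was at 23.3, 4.29 and 17.4 CPM in BALB/c and at 3.06, 23.4 and 32.4 CPM in C57BL/6. In both genes C57BL/6 replicate 1 was the lowest of the 6 libraries and BALB/c replicate 2 the lowest of its strain. Rsad2 (viperin) and its neighbour Cmpk2, a nucleotide kinase 12751 bp away, make and feed a nucleotide analogue that ends viral RNA chains. Rsad2 had 3, 3 and 0 counts in BALB/c and 0, 3 and 8 in C57BL/6, and Cmpk2 had 3, 4 and 0 against 0, 8 and 14, so that neither was tested at this depth. Without C57BL/6 replicate 1, Cmpk2 was higher in each C57BL/6 library, at 6.25 and 2.86 CPM, than in BALB/c, at 2.00 CPM or less. That order rests on few counts, and the 0 counts of BALB/c replicate 3 allow a level of up to 2.9 CPM.

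The factors of the pathway overlapped between the strains. Stat2 was at 58.03, 32.2 and 49.4 CPM in BALB/c and at 29.0, 55.5 and 51.0 CPM in C57BL/6, a log2 difference of 0.03 ± 0.37. Irf9, the DNA-binding part of ISGF3, was at 86.7, 72.7 and 59.0 CPM in BALB/c and at 105, 72.7 and 102 CPM in C57BL/6, a difference of -0.35 ± 0.27, and its exons overlap those of Rnf31 on the same strand. Irf7, which amplifies the production of interferon, was at 103, 37.6 and 59.999 CPM in BALB/c and at 87.1, 103 and 78.2 CPM in C57BL/6. BALB/c replicates 2 and 3 were the lowest there, BALB/c replicate 1 equalled the highest C57BL/6 library, and the log2 difference was -0.42 ± 0.39. Irf1 was at 40.7, 84.8 and 67.7 CPM in BALB/c and at 138, 32.8 and 86.5 CPM in C57BL/6, a log2 difference of -0.41 ± 0.52 that was 0.07 ± 0.48 without C57BL/6 replicate 1. The libraries with the highest Isg15, BALB/c replicate 1 and C57BL/6 replicate 2, had the lowest Irf1.

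The sensors of viral RNA were low. Ddx58, which encodes RIG-I, was at 12.7, 15.03 and 22.3 CPM in BALB/c and at 16.0, 10.2 and 21.8 CPM in C57BL/6, a log2 difference of 0.02 ± 0.44. Dhx58, which encodes the regulator LGP2, was at 18.0, 11.5 and 10.6 CPM in BALB/c and at 13.8, 15.6 and 15.3 CPM in C57BL/6, a difference of -0.16 ± 0.39. Ifih1, which encodes MDA5, had 3, 7 and 4 counts in BALB/c and 0, 4 and 28 in C57BL/6. None of these separated the strains. PARP9 and DTX3L form a complex that joins ADP-ribosylation with ubiquitination, and their genes overlap by 682 bp head to head on chromosome 16, with Parp14, another ADP-ribosyltransferase, 54966 bp further on. Parp9 was at 48.0, 39.0 and 43.5 CPM in BALB/c and at 13.8, 65.7 and 65.3 CPM in C57BL/6. Without C57BL/6 replicate 1 the strains separated, with a log2 difference of -0.60 ± 0.20 (edgeR unadjusted p = 0.0223, adjusted 0.804), against -0.16 ± 0.54 with it. Dtx3l had 20.7, 16.8 and 24.2 CPM in BALB/c, against 12.99, 21.9 and 32.9 CPM in C57BL/6, and differences of -0.47 ± 0.32 and -0.17 ± 0.42 in the same order. Parp14 was at 32.7, 33.6 and 50.3 CPM in BALB/c and at 47.4, 39.1 and 51.2 CPM in C57BL/6, and its difference was -0.25 in both.

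Psme1 and Psme2 encode the subunits of the proteasome activator PA28, which interferon gamma induces and which aids the making of peptides for MHC class I. Psme2 was the steadiest of the set within C57BL/6, at 270.4, 276 and 269 CPM, and was at 249, 283 and 320.3 CPM in BALB/c, although a near-identical copy, Psme2b, covers 499 of its last 500 nt. Psme1, which lies 5911 bp from Psme2, was at 179, 214 and 216 CPM in BALB/c and at 273, 145 and 239 CPM in C57BL/6. Their log2 differences were 0.07 ± 0.21 and -0.11 ± 0.29. Among the remaining genes, Ifi27, a small protein of mitochondria and the nuclear envelope, was at 491, 482 and 485 CPM in BALB/c and at 636, 536 and 531 CPM in C57BL/6. The strains did not overlap although the difference was small, -0.22 ± 0.21, since the BALB/c libraries lay within 1.02-fold of each other. Lgals3bp, a secreted glycoprotein that binds galectins, was at 416, 167 and 297 CPM in BALB/c and at 429, 543 and 394 CPM in C57BL/6, a difference of -0.64 ± 0.36. Ifi35 was at 119, 82.7 and 86.1 CPM in BALB/c and at 186, 91.4 and 113 CPM in C57BL/6, a difference of -0.44 ± 0.33. Rtp4, a chaperone of receptors, was at 86.0, 71.6 and 85.2 CPM in BALB/c and at 15.3, 80.5 and 84.3 CPM in C57BL/6, a difference of 0.42 ± 0.56 that was -0.04 ± 0.19 without C57BL/6 replicate 1.

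**Figure D2:**
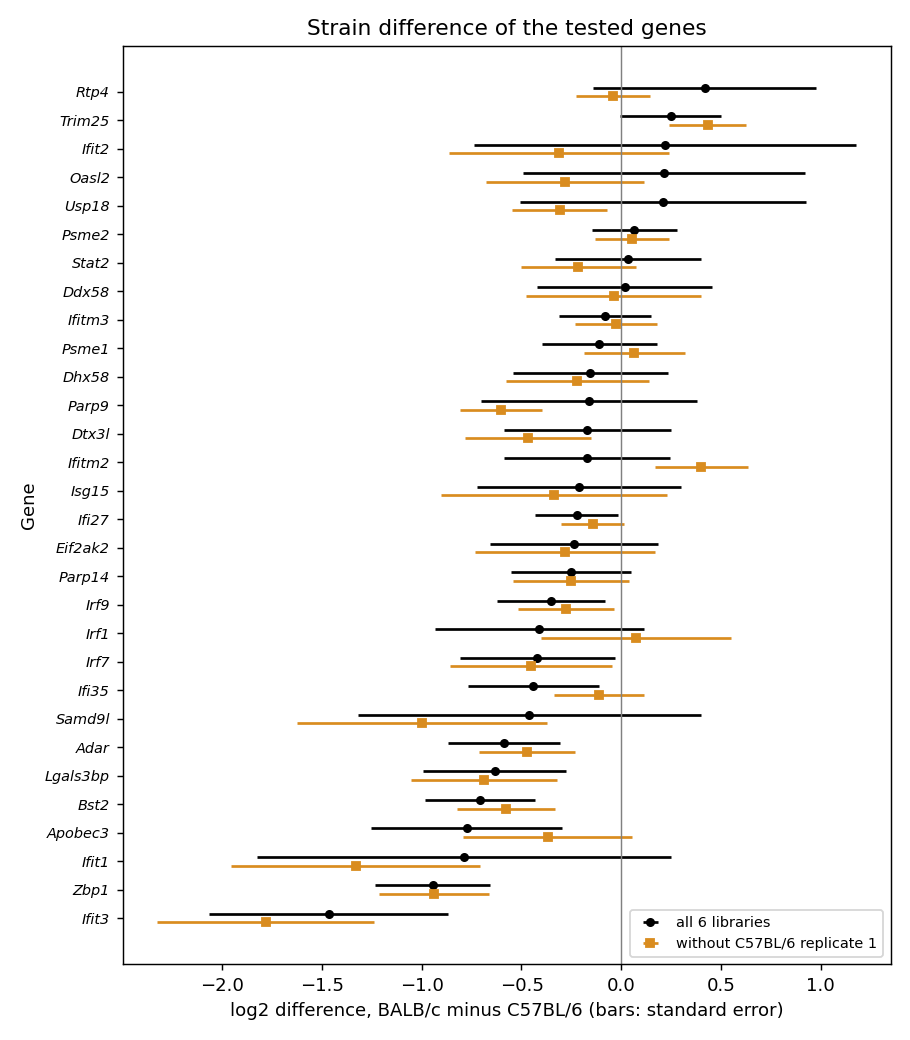
The log2 difference, BALB/c minus C57BL/6, of the 30 tested genes with its standard error, with all 6 libraries (black circles) and without C57BL/6 replicate 1 (orange squares). With all libraries 22 of the 30 lie below 0, and without that library 25 do. Ifit3 and Zbp1 are the lowest with all libraries.

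In 5 of the 30 genes each BALB/c library lay below each C57BL/6 library, and in 0 each lay above. The 5 were Bst2, Ifit3, Ifi27, Adar and Zbp1. They are 16.7% of the 30, where 6.22% of all tested genes lay in that order and 5.15% in the opposite one. Without C57BL/6 replicate 1, 8 genes, or 26.7%, lay lower in BALB/c without overlap, against 9.75% of all tested genes. These added Ifit1, Parp9 and Samd9l. There 2, Ifitm2 and Trim25, lay higher, or 6.67% against 9.13%. In this fit 0 genes of the set passed at an adjusted p under 0.05, where 0.276% of all tested genes did, and 3, Ifit3, Zbp1 and Parp9, had an unadjusted p under 0.05, all lower in BALB/c, or 10% against 5.01% in either direction and 3.12% in that one. The median log2 difference of the set was -0.28, beside 0.00 for all tested genes, and 25 of 30 were below 0, or 83.3% against 49.7%. With no gene past the threshold in any of 15 alternative settings, the lean toward lower values in BALB/c is a description of these libraries.

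That lean was smaller without BALB/c replicate 2. The summed level of the 33 genes was 6043, 4554 and 5760 CPM in BALB/c, against 7239, 6497 and 5902 CPM in C57BL/6. BALB/c replicate 2 was thus the lowest, and without it the summed levels of the strains still met, at 6043 and 5902 CPM. Of the 30 tested genes 11 were lowest of all 6 libraries in BALB/c replicate 2, or 36.7%, where 13.5% of all tested genes were. Isg15, Ifit3, Irf7, Lgals3bp and Eif2ak2 were among them. In 0 of the 30 was that library the highest, where it was for 13% of all tested genes. Without it the median log2 difference of the set was -0.11, beside 0.02 for all tested genes, and 18 of 30 were below 0, against 48.2% of all tested genes. There 0 of the 30 had an unadjusted p under 0.05, where 2.28% of all tested genes did. Without C57BL/6 replicate 3, 18 of 29 were below 0, against 50% of all tested genes, and 0 had such a p, where 2.9% of all tested genes did. Between BALB/c libraries the median range of the 30 genes was 0.68 on the log2 scale, beside 0.59 for all tested genes. Between the 3 C57BL/6 libraries it was 0.97, beside 1.01. Between C57BL/6 replicates 2 and 3 alone it was 0.31, beside 0.35, but a range over 2 libraries is smaller by construction.

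**Figure D3:**
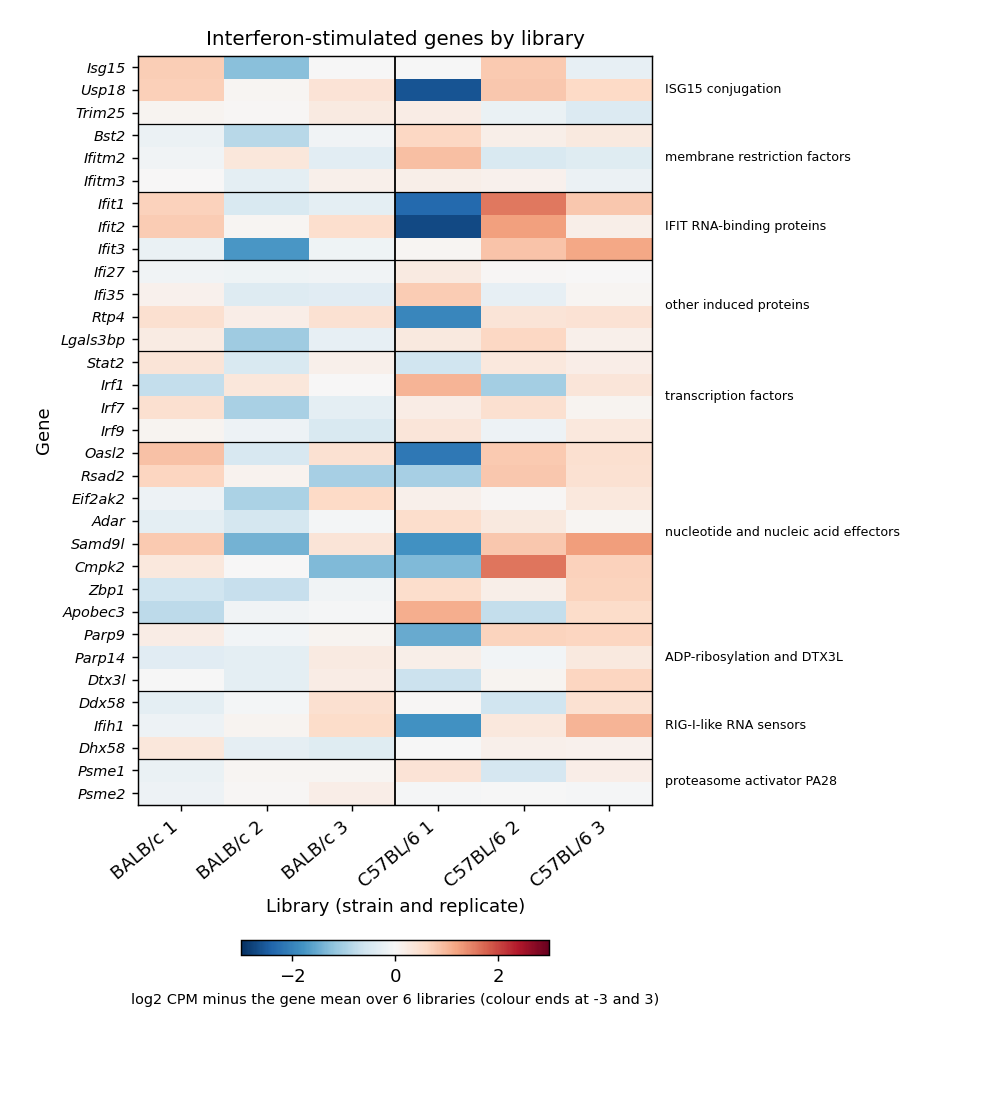
Each of the 33 genes (rows, grouped by role) in the 6 libraries (columns), coloured by log2 CPM minus the mean of the gene over the libraries, red for higher and blue for lower. C57BL/6 replicate 1 holds the deepest blue (Ifit1, Ifit2, Usp18, Oasl2) and is red for Irf1, Ifitm2 and Apobec3, and BALB/c replicate 2 is blue for Isg15, Ifit3, Irf7, Lgals3bp and Eif2ak2.

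C57BL/6 replicate 1 split the set. Ifit1, Ifit2, Oasl2, Rtp4, Usp18, Parp9 and Samd9l were at least 4-fold lower in it than in both other C57BL/6 libraries, which is 7 of 30, or 23.3%, against 12.9% of all tested genes. In 10 others, among them Bst2, Ifitm2, Irf1, Apobec3 and Adar, it was the highest of all 6 libraries, or 33.3% against 35.2% of all tested genes. Of the low genes, Ifit1 held the response element, Ifit2, Oasl2 and Samd9l held none, and Rtp4, Usp18 and Parp9 could not be searched. Among the genes highest in this library, Bst2, Ifitm2 and Apobec3 held it. The part of the element in the split was not tested. The GC content and the length of the transcript moved with the split. The median length was 3123 nt for the 7 low genes, 2237 nt for the other 23 and 2864 nt for all tested genes with a transcript. In the last 500 nt the median GC content was 40.6% for the 7 and 49.6% for the 23. Over the whole transcript the 7 low genes had a median GC content of 47.5% and a range of 38.8% to 50.9%. The other 23 had a median of 52.8% and a range of 43.9% to 55.8%, so the ranges overlapped. Over all tested genes the median log2 deviation of this library from the mean of the other C57BL/6 libraries was -1.93 for the 1340 genes under 45% GC and 0.66 for the 2613 genes of at least 55% GC. Among the 4 tested genes of the set under 45% GC it was -3.12. Usp18, at 50.9% GC, deviated by -3.28, while the median of all tested genes from 50% to 55% GC was 0.12. Eif2ak2, at 43.9% GC, Parp14, at 46.3%, and Apobec3, at 48.6%, deviated by -0.02, 0.08 and 1.19. The part of GC content or of transcript length in these values was not tested.

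**Figure D4:**
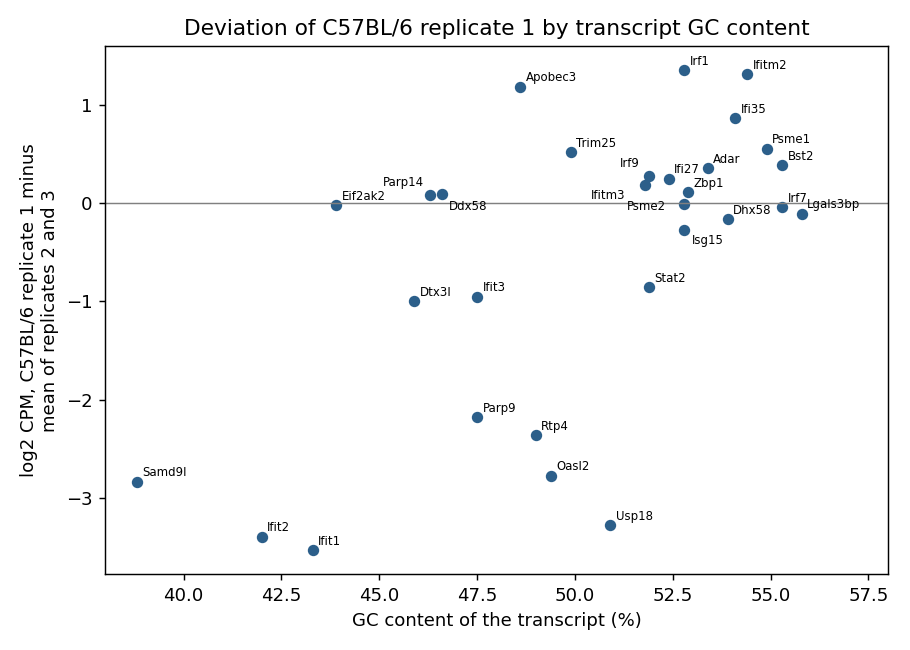
The log2 CPM of C57BL/6 replicate 1 minus the mean of replicates 2 and 3, for each of the 30 tested genes, against the GC content of its transcript in percent. Ifit1, Ifit2 and Samd9l lie below 45% GC and under -2.5, Usp18 lies as low at 50.9%, and the genes above 52% lie between -0.27 and 1.36.

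Markers of other cells were read beside the set. In bulk RNA, fewer cells of a type and less RNA per cell cannot be told apart. Macrophages express several genes of the set at high levels. All 14 macrophage markers were in the table, and 11 could be tested. All 11 had a log2 difference below 0, against 48.9% of all tested genes, with a median of -0.92. In edgeR 0 passed at an adjusted p under 0.05, where 0.206% of all tested genes did. There 7 of the 11 had an unadjusted p under 0.05, where 3.86% of all tested genes did in either direction and 2.54% lower in BALB/c. DESeq2 called 1 of the 11, the complement gene C1qb (adjusted p = 0.0332), and limma-voom called 0 with or without quality weights. The summed level of the 14 markers was 1110, 747 and 1010 CPM in BALB/c, against 2060, 1130 and 1650 CPM in C57BL/6, the same order of the strains as for Bst2, Zbp1 and Ifit3. The highest BALB/c sum and the lowest C57BL/6 sum were close. Of the tested markers, C1qa, C1qb, C1qc, Laptm5, Cd68 and Fcer1g lay lower in BALB/c without overlap, where 6.22% of all tested genes did. Lyz2, the most abundant, and Ctss, Tyrobp, Cd14 and Csf1r overlapped. Lower sums in BALB/c were not particular to the macrophage markers. The 8 pericyte and smooth muscle markers summed to 3600, 2740 and 3170 CPM in BALB/c and to 6230, 5260 and 3800 CPM in C57BL/6. Most of this sum was Tagln, at 3068, 2268 and 2537 CPM in BALB/c and at 5417, 4335 and 2959 CPM in C57BL/6. Tagln overlapped between the strains, and of the 8 markers Cnn1 alone did not. Of the 7 that were tested, 6 were below 0, with 2 at an unadjusted p under 0.05 in edgeR. No macrophage marker was at 0 in every library. Adgre1 was at 0 in BALB/c replicate 3, and Mrc1 and Ptprc were at 0 in C57BL/6 replicate 1. Without C57BL/6 replicate 1 all 12 tested macrophage markers were below 0, against 49.7% of all tested genes. Of these 12, 6 had an unadjusted p under 0.05 in edgeR, against 5.01% of all tested genes. That count depended on the libraries. Leaving out BALB/c replicate 1, 2 or 3 gave 7, 2 and 4 of 12 macrophage markers. In these fits 271 of 9049, 205 of 8993 and 226 of 9143 tested genes had such a p. Leaving out C57BL/6 replicate 2 or 3 gave 8 and 5 of 11 markers, beside 598 of 9078 and 261 of 9003 tested genes. The part of macrophages, or of pericytes and smooth muscle, in the strain differences was not tested.

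BALB/c replicate 1 and C57BL/6 replicate 2 were the poorest of the libraries in the 12 mammary epithelial markers and the richest in fibroblast markers. The epithelial sum was 2040 and 3290 CPM in these libraries and 9450 to 19500 CPM in the other 4. The fibroblast sum was 10900 and 11700 CPM in the pair and 2510 to 7870 CPM in the others. Of the 30 tested genes of the set, 7 were higher in both libraries of the pair than in each of the others, which were Isg15, Ifit2, Stat2, Irf7, Oasl2, Usp18 and Dhx58. That is 23.3%, where 16% of all tested genes were in that order. Lower in both were 4, which were Irf1, Ddx58, Apobec3 and Psme1, or 13.3% against 15.3% of all tested genes. The other 19 genes, among them Zbp1, Bst2 and Lgals3bp, followed neither order. Both shares of the set were near those of all tested genes, and the part of epithelial and fibroblast content in the levels was not tested.

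**Figure D5:**
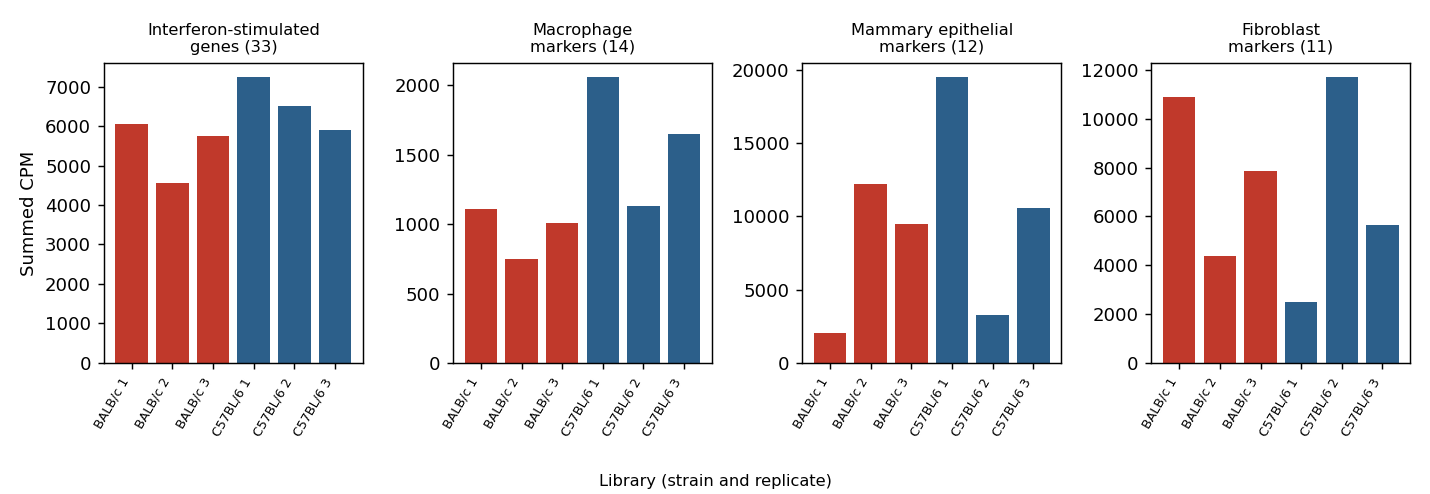
Summed CPM in each library for the 33 interferon-stimulated genes and for 14 macrophage, 12 mammary epithelial and 11 fibroblast markers, BALB/c in red and C57BL/6 in blue, each panel with its own axis from 0. The interferon-stimulated sum is lowest in BALB/c replicate 2 at 4554 CPM, and the epithelial sum is 2040 and 3290 CPM in BALB/c replicate 1 and C57BL/6 replicate 2.

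The rest of the pathway was read from lists of its other genes, and no gene of these lists passed at an adjusted p under 0.05 in edgeR, DESeq2, limma-voom or limma-voom with quality weights. None of 16 interferon genes was in the table. All 11 receptor chains, kinases and STAT factors of the relay list were tested, with 0 at an unadjusted p under 0.05 in edgeR, where 3.86% of all tested genes were. Of the 11, 8 were below 0, with a median log2 difference of -0.48, against 48.9% of all tested genes. Stat3 and Jak1, the highest of these, had differences of -0.75 ± 0.34 and 0.17 ± 0.27. Ifnar1, Ifngr1 and Ifngr2 were chosen after their values were seen. Ifnar1, a chain of the type I receptor, was at 9.34, 8.59 and 8.71 CPM in BALB/c and at 16.0, 12.5 and 16.1 CPM in C57BL/6. The chains of the interferon gamma receptor had log2 differences of -0.59 ± 0.29 for Ifngr1 and -0.55 ± 0.24 for Ifngr2. In these 3 of the 11 genes BALB/c lay lower without overlap, or 27.3%, where 6.22% of all tested genes did. Without C57BL/6 replicate 1, 10 of the 11 were below 0, with a median of -0.36, against 49.7% of all tested genes.

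Of 14 tested genes that induce interferon, 7 were below 0, with a median log2 difference of -0.02, and 1, Irf8, had an unadjusted p under 0.05 in edgeR. Over all tested genes 48.9% were below 0 and 3.86% had such a p. Irf8, a factor of myeloid cells, was at 4.67, 2.15 and 3.87 CPM in BALB/c and at 22.2, 11.7 and 8.57 CPM in C57BL/6, a difference of -1.998 ± 0.59 (edgeR adjusted p = 0.886). Irf3, the factor that first induces interferon, and Sting1, the adaptor of DNA sensing, were at -0.42 ± 0.29 and 0.18 ± 0.37. Of 15 tested negative regulators 9 were below 0, with a median of -0.32 and 0 at an unadjusted p under 0.05. Socs3, an inhibitor of JAK kinases, was at -0.48 ± 0.30 and Ptpn11, a phosphatase, at 0.34 ± 0.54. Without C57BL/6 replicate 1, 10 of the 14 inducing genes were below 0, with a median of -0.13. In the same fit 12 of the 15 negative regulators were below 0, with a median of -0.10, and 49.7% of all tested genes were.

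Of 40 other tested interferon-stimulated genes 24 were below 0, with a median of -0.09, and 4 had an unadjusted p under 0.05 in edgeR, or 3 lower and 1 higher. Over all tested genes 48.9% were below 0 and 3.86% had such a p, with 2.54% lower in BALB/c. Cxcl10, a chemokine that draws T and NK cells, was at 10.7, 7.16 and 3.87 CPM in BALB/c and at 12.99, 37.5 and 19.8 CPM in C57BL/6. The strains did not overlap, and the difference was -1.66 ± 0.56. Znfx1, a sensor of viral RNA, and Isg20, an exonuclease, were at -0.83 ± 0.34 and -0.80 ± 0.34. Tor3a, of the torsin family, went the other way, with 62.0, 36.1 and 25.2 CPM in BALB/c against 2.29, 16.4 and 7.35 CPM in C57BL/6 and a difference of 2.26 ± 0.66 (edgeR adjusted p = 0.860). Shisa5 and Lap3, the highest of this list, were at -0.30 ± 0.25 and -0.03 ± 0.28. Without C57BL/6 replicate 1 the median of this list was -0.30 and 31 of 43 tested genes were below 0, against 49.7% of all tested genes.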

How the data were processed

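The authors deposited raw counts per gene symbol for 6 libraries of 3′ ends of polyadenylated RNA. The submitters' processing notes name STAR 2.4.2a, HTSeq, bcl2fastq and mm10. The sources used here do not give the annotation, the strand setting or the treatment of molecular identifiers and multiple matches. The reference is of C57BL/6, so that BALB/c reads may align less well. Columns were matched to samples by library name. The header line mixes spaces and tabs, so its names were assigned to the columns in their order after splitting at white space, and every strain label rests on that reading. Each gene of the table reaches at least 6 counts in 1 library.

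The test was edgeR 4.0.16 under R 4.3.3, fitted on all genes (filterByExpr by strain, TMM factors of 0.866 to 1.06, robust quasi-likelihood fit, strain as the only term, two-sided, Benjamini-Hochberg adjustment, threshold 0.05). The strain difference is log2, BALB/c minus C57BL/6, and its standard error was taken as its absolute value over the root of F. CPM use the TMM-scaled totals of tested genes. Log2 CPM have a prior count of 2. DESeq2 1.42.0 and limma 3.58.1 were alternatives. The floor of 3 counts and the totals of 1035485 to 4665896 concern counting error only, and p-values rest on 3 libraries per strain.

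Coordinates, transcript GC content and exon overlaps are from GENCODE vM21 on GRCm38, the assembly of mm10. Copies were searched with BLAST 2.17.0 in the last 500 nt of the longest coding transcript of each gene (at least 95% identity over 60 nt). The genes of the set and the lists were chosen with earlier results of these data known. Values of every library are given for the most abundant genes, for those with an unadjusted p under 0.05 or strains that do not overlap, with or without C57BL/6 replicate 1 and for the most abundant gene of each role, and most others are given too. Other pathway genes are named where their unadjusted p was under 0.05 or as the 2 most abundant of a list. The exceptions are Ifnar1, Ifngr1, Ifngr2 and Ifit3b, which were chosen after their values were seen. The values of 1 gene of the receptor list are not reported here.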

Additional observations from a re-analysis of the deposited data

How the results depend on the processing

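None of the 30 tested genes of the set and no gene of the pathway lists passed the threshold under any of the 15 alternatives, the lowest adjusted p of the set being 0.104, for Ifit3 and Zbp1 in limma-voom with quality weights. Of the 30, 14 kept their sign throughout and 16 changed it at least once, and the cause was not tested. Over all tested genes 18 passed in edgeR with TMM scaling, 11 with library totals alone, 71 in DESeq2, 3 in limma-voom and 57 in limma-voom with quality weights, where C57BL/6 replicate 1 had a weight of 0.157. Leaving out 1 library gave 0 to 25. Same-number replicates of the strains had correlations of -0.419, -0.397 and -0.077 in their deviations from the strain mean. Centring on that mean constrains these values, so they cannot show whether same-number samples were handled together. With the replicate number as a block 0 genes passed and 158 had an unadjusted p under 0.05 in edgeR. There the log2 difference of Parp9 changed sign, to 0.081.

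Signs also changed, in log2, for Ddx58 in DESeq2 (-0.001) and limma-voom (-0.166), for Stat2 in limma-voom (-0.044), and for Ifitm3 with library totals (0.004). Lap3 was at 0.025 with upper-quartile scaling, 0.031 with library totals and 0.004 with a mean of at least 50 counts. With quality weights Ifitm2 was at 0.255, Ifitm3 at 0.105, Stat2 at -0.219, Oasl2 at -0.282, Usp18 at -0.198, Ddx58 at -0.266, Jak1 at -0.029 and Sting1 at -0.116.

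Leaving out each library in turn gave a range on both sides of 0 for 20 named genes. These were Isg15 (-0.759 to 0.159), Ifit2 (-0.312 to 1.046), Ifitm2 (-0.405 to 0.400), Ifitm3 (-0.199 to 0.033), Stat2 (-0.215 to 0.246), Irf1 (-0.769 to 0.073), Oasl2 (-0.282 to 0.624), Rtp4 (-0.041 to 0.743), Usp18 (-0.309 to 0.609) and Parp9 (-0.602 to 0.119). They were also Dtx3l (-0.469 to 0.213), Ddx58 (-0.226 to 0.314), Eif2ak2 (-0.716 to 0.091), Samd9l (-0.997 to 0.141), Psme1 (-0.318 to 0.066), Psme2 (-0.030 to 0.145), Lap3 (-0.223 to 0.166), Jak1 (-0.038 to 0.304), Sting1 (-0.143 to 0.376) and Ptpn11 (-0.096 to 0.852). Genes under about 10 CPM rest on few counts, and a level under the 3-count floor cannot be told from 0.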
